A study of Arabidopsis thaliana with 8 samples.

Results

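The comparison set stems of an Arabidopsis thaliana line labelled as an overexpressor of ferulate/coniferaldehyde 5-hydroxylase (F5H-OE) against stems of fah-1, labelled as the loss-of-function line of the same enzyme. It used 5 of the 8 arrays of the series, namely all 3 F5H-OE arrays and both fah-1 arrays, and covered all 22746 probe sets that were not controls. The remaining 3 arrays held wild-type (WT) stems and served to place each difference. All 3 genotypes were of the Columbia-0 ecotype, all stems were inflorescence stems of plants aged 1.5 months, and each sample pooled stems of 5 plants. The labels give neither the promoter of the overexpression construct nor the number of independent lines, so each genotype may be 1 line.

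F5H is a cytochrome P450 of the phenylpropanoid pathway. It adds the hydroxyl group that turns guaiacyl into syringyl precursors of lignin, the phenolic polymer of vessel and fibre walls. Loss of the enzyme is known to remove syringyl lignin and sinapate esters from Arabidopsis stems, and its overexpression is known to give lignin made mostly of syringyl units. By their labels the 2 lines therefore stand at opposite ends of F5H activity, which was not measured here.

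F5H itself was not among the named probe sets, so the enzyme's transcript was not analysed here by name. A probe set without a listed gene, 253088_at, showed the widest gap in the comparison, with intensities of 15433, 14699 and 15006 in F5H-OE against 198 and 258 in fah-1. Its WT values of 2212, 2080 and 1947 lay between both lines. Median intensities ran from 112 to 118 arbitrary units over all 8 arrays. F5H-OE replicate 1 stood apart, correlating at 0.985 and 0.988 with the other F5H-OE arrays, which correlated at 0.997 with each other. Its GAPDH control probe sets differed by 1.47 on the log2 scale between the 3′ and 5′ ends, against at most 0.853 in any other array. The lists of vessel, cambium, epidermis and flower markers held no gene with a named probe set, so the tissue label was not checked with them.

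Between F5H-OE and fah-1, 449 of 22746 probe sets (1.97%) passed an adjusted p of 0.05, with 259 above (1.14%) and 190 below (0.835%) fah-1. This split depended on scaling, since 211 were higher and 241 lower once each array was recentred on its median. A single gene could be named for 238 of the changed probe sets, each gene counted once, which was 1.78% of the 13355 named genes. Of these 238 genes, 129 were higher (0.966%) and 109 lower (0.816%) in F5H-OE. Differences of 4-fold or more were found for 3 higher and 16 lower genes, with genes near the floor of detection taken at their bound, and of 2-fold or more for 36 higher and 45 lower genes. The smallest called difference was 0.43 on the log2 scale.

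The 2 fah-1 arrays set how firmly these genes can be called. Of the 238 genes, 47 stayed past the threshold without fah-1 replicate 1, 39 without replicate 2 and 31 in either case. The same 31 genes kept their call in every alternative analysis that tested them, which was all 18 for 26 genes and 16 or 17 for 5 genes that a dim filter left out (AT3G29120, AT2G11140, AT5G65850, AT5G41860 and AT2G13890). Any other gene given below as changed lost its call in at least 1 alternative. Leaving out F5H-OE replicate 1 instead kept all 238 genes and raised the count to 796 named genes (5.96%).

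The gene that stood highest in F5H-OE was GSTU25, a tau-class glutathione S-transferase, an enzyme group that couples glutathione to reactive compounds. Its intensities were 217, 325 and 399 in the F5H-OE arrays and 13.4 and 15.3 in the fah-1 arrays, with WT at 12.5, 11.6 and 15. The fah-1 and WT arrays lay near the signal of the TrpnX controls, taken as the floor of detection, so the difference is given as at least 20.8-fold (adjusted p = 7.96e-05). The call held in all 18 alternatives. Family lists held only genes whose symbol or synonyms matched the family, so members known by locus alone were left out. Of the 13 glutathione S-transferases listed in this way, GSTU25 alone passed the test (7.69%, against 1.78% of all named genes). The median of the 13 log2 differences was 0.10, against -0.013 over all named genes. AT5G44000, a gene of the wider transferase family outside these 13, was 1.46-fold higher in F5H-OE (adjusted p = 0.0165). Family shares such as that of the 13 are given below only where a listed gene passed. Each such share is above nil by this choice and rests on 1 or 2 genes, so it is not read as an enrichment. Shares not repeated below are those of AP2/ERF factors (1 of 3, 33.3%) and of sugar, nitrate and amino acid transporters (1 of 31, 3.23%). None passed among 29 expansins and xyloglucan endotransglucosylases, 12 auxin, gibberellin and GASA response genes, 9 calmodulin-like proteins or 7 WRKY factors. The same held for 7 listed proteases, 5 pectin-degrading enzymes, 2 alkenal and cinnamyl reductases and 1 heat shock gene. Changed genes of these kinds named below lay outside these lists. Over all lists of families, pathways and markers, 12 of 288 genes passed, against 238 of 13355 named genes (1.78%). The lists were chosen with earlier results of these data known, so the gap between these counts was not tested.

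The next highest was AT1G02300, which encodes a cathepsin B-like cysteine protease. It read 3059, 3077 and 3246 in F5H-OE against 603 and 620 in fah-1 and 641, 647 and 793 in WT. The 5.11-fold difference (log2 2.35 ± 0.11 SE, adjusted p = 3.32e-05) was among those kept in all alternatives. AT3G20340 read 1097, 776 and 1003 in F5H-OE and 205 and 172 in fah-1, a 5.06-fold difference (adjusted p = 0.00373) whose adjusted p was 0.0698 without fah-1 replicate 2. OCT5, an organic cation transporter, read 362, 436 and 446 against 94.2 and 122, a 3.85-fold difference (adjusted p = 0.00489) that reached 0.0677 without fah-1 replicate 1. Arrays without overlap between the lines were a condition for naming both genes, and 36.1% of all named genes met it. Without fah-1 replicate 1 or 2, the log2 difference was 2.46 or 2.21 for AT3G20340, against 2.338 with all arrays. For OCT5 it was 1.76 or 2.13, against 1.945.

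CYTC6A encodes a c-type cytochrome of the thylakoid lumen. Its intensities were even within each line, 781, 828 and 816 in F5H-OE against 217 and 234 in fah-1, and WT (172, 258 and 235) lay with fah-1. The difference was 3.59-fold (adjusted p = 0.00112). AT2G07000 was 3.76-fold higher (adjusted p = 0.00112) and AT5G37980, of the alkenal reductase family, 3.53-fold higher (adjusted p = 0.00206). These 3 genes kept their call throughout. P1R1 was 2.55-fold higher (adjusted p = 0.00373, or 0.0597 without fah-1 replicate 1), and AT5G22860, of the S28 carboxypeptidase family, 2.63-fold higher (adjusted p = 0.0474, lost in 11 alternatives).

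The gene lowest in F5H-OE was AT3G53980, of the lipid-transfer protein family, small secreted proteins that carry lipids at the cell surface. It read 187, 313 and 238 in F5H-OE against 3820 and 3639 in fah-1, and 3675, 4436 and 4327 in WT. The difference was 15.5-fold (log2 -3.95 ± 0.19 SE, adjusted p = 5.60e-05). F5H-OE was thus set apart from fah-1 and WT alike. AT5G51620 was 12.9-fold lower (12.5, 19.3 and 16.2 against 194 and 213, adjusted p = 0.000463), with 1 of its F5H-OE arrays at or below the TrpnX level. HRD, an AP2/ERF transcription factor also known as HARDY, read 94.1, 44.3 and 51.3 in F5H-OE and 554 and 525 in fah-1. Its 9.02-fold difference (adjusted p = 0.00473) missed the threshold without fah-1 replicate 1 (0.0638) and without replicate 2 (0.0707).

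AT5G56380, an F-box gene, gave the smallest adjusted p among named genes, 7.35e-06. Its intensities were 16.2, 16.4 and 18.9 in F5H-OE and 131 and 137 in fah-1, a 7.84-fold difference, with WT from 138 to 149. AT5G56910 was 7.04-fold lower (adjusted p = 1.12e-05) and AT2G14880 5.13-fold lower (adjusted p = 0.000192), both in all alternatives. AT3G29120 was not above the TrpnX level in any F5H-OE array and read 37.3 and 56.8 in fah-1, so it was at least 3.49-fold lower in F5H-OE (adjusted p = 0.000316). AT1G19960 (5.35-fold, adjusted p = 0.0103) and AT2G25510 (4.56-fold, adjusted p = 0.00670) were lower as well, but neither call held when either fah-1 array was left out.

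**Figure D1:**
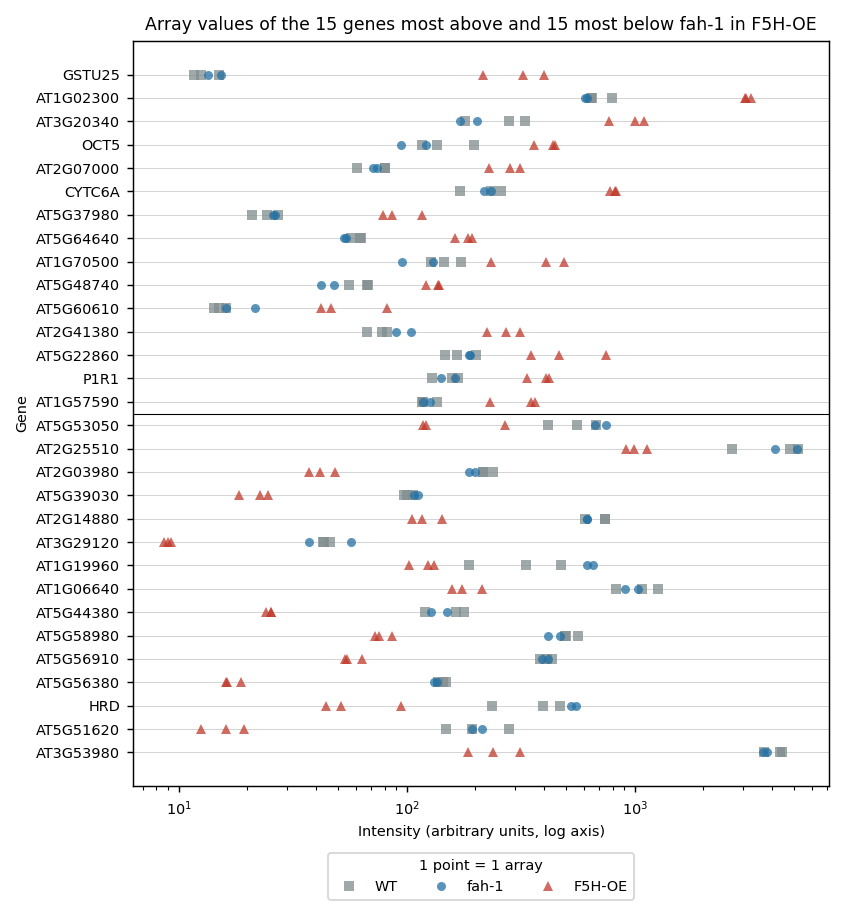
Intensity on a log axis (arbitrary units) of the 15 genes most above and the 15 most below fah-1 in F5H-OE, 1 point for each array, with triangles for F5H-OE, circles for fah-1 and squares for WT. The genes were chosen among those whose F5H-OE and fah-1 arrays do not overlap, as for AT3G53980, at 187 to 313 in F5H-OE and 3639 and 3820 in fah-1.

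Of the 238 changed genes, 114 were placed in 15 groups by family and function. The groups were formed from the changed genes alone, so they describe the calls and say nothing of how large a part of a family changed. The largest, labelled oxidases, oxygenases and reductases, held 16 genes, 9 higher and 7 lower, and 4 kept their call in all alternatives. It takes in CYTC6A and 2 cupredoxins, which are not enzymes of these kinds. The berberine bridge enzyme-like genes, which encode flavin-linked oxidases, included AT5G44380, at 25.6, 25.4 and 24.1 in F5H-OE against 129 and 150 in fah-1 (5.55-fold lower, adjusted p = 0.000296). A relative, AT1G30760, was 4.40-fold lower (adjusted p = 0.0128), with adjusted p-values of 0.116 and 0.141 without the one or the other fah-1 array. Both were low in every F5H-OE array.

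Genes of 2-oxoglutarate-dependent oxygenases, which hydroxylate or otherwise oxidise small molecules, differed in both directions. AT1G06640 read 214, 175 and 158 in F5H-OE against 1031 and 909 in fah-1 (5.36-fold lower, adjusted p = 0.000791). AT1G14130 and AT5G43450 were 2.25-fold and 1.92-fold higher (adjusted p = 0.0278 and 0.0235). Among cytochromes P450, the enzyme class of F5H, 24 genes were listed by symbol or synonym and 2 passed the test (8.33%, against 1.78% of all named genes). CYP71B22 was 2.56-fold lower (83.9, 153 and 99.4 against 282 and 274, adjusted p = 0.0278) and CYP71B26 1.56-fold higher (282, 322 and 316 against 179 and 215, adjusted p = 0.0279). The median over the 24 log2 differences was -0.12.

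Other genes of this group higher in F5H-OE were the copper-binding cupredoxins AT3G27200 (1.91-fold, adjusted p = 0.0153) and AT5G26330 (1.72-fold, adjusted p = 0.0323). Higher too were the cytochrome b561 family genes AT2G04850 (2.00-fold, adjusted p = 0.0234) and AT5G47530 (1.86-fold, adjusted p = 0.0182). ALDH6B2, an aldehyde dehydrogenase, was 1.79-fold lower (764, 751 and 804 against 1302 and 1464, adjusted p = 0.00367). Its call was lost in 1 of the 18 alternatives.

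Enzymes that attach or remove groups on small molecules made up 2 groups. Among 7 conjugating enzymes, F5H-OE was higher for 4 and lower for 3. The UDP-glucosyltransferase UGT72B1 (GT72B1), known to glucosylate monolignols and chlorinated phenols, read 1078, 957 and 1290 in F5H-OE against 2449 and 2919 in fah-1 and 2359 to 2679 in WT. It was 2.43-fold lower (log2 -1.28 ± 0.14 SE, adjusted p = 0.00410), a call lost without fah-1 replicate 2. It was the 1 gene of 51 listed UDP-glycosyltransferases to pass, a share of 1.96% that lies near the 1.78% of all named genes. The putative methyltransferase AT2G41380 was 2.76-fold higher (314, 225 and 273 against 89.9 and 105, adjusted p = 0.00349), with 0.0555 without fah-1 replicate 1. The acyltransferase AT5G39090 was 2.07-fold lower (adjusted p = 0.0109).

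Of 10 esterases, lipases and lipid enzymes, 7 were lower and 3 higher in F5H-OE. AT5G58980, a neutral ceramidase of sphingolipid breakdown, read 72.7, 75.8 and 86.5 against 471 and 418 (5.68-fold lower, adjusted p = 2.80e-05). The other neutral ceramidase among them, AT1G07380, was 1.47-fold higher (adjusted p = 0.0189), so members of 1 enzyme family differed in opposite directions. AT2G03980, of the GDSL esterases and lipases, read 41.6, 48.4 and 37.4 against 188 and 199 (4.57-fold lower, adjusted p = 8.13e-05). The carboxylesterase-like gene AT5G06570 was 1.96-fold lower (adjusted p = 0.00391), and these last 2 and AT5G58980 kept their call throughout. AT5G53050, an alpha/beta hydrolase gene, was 4.51-fold lower (270, 118 and 122 against 747 and 671, adjusted p = 0.0213), a call lost in 5 alternatives.

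Of genes placed with pectin, xylan and other wall glycans, 11 changed, of which 9 were higher in F5H-OE. The 9 include 2 beta-glucosidase genes (log2 differences of 0.50 and 1.14), 1 of them BGLU33. Whether these 2 act on wall glycans was not examined. The pectin methylesterase gene AT5G64640, for an enzyme that removes methyl groups from pectin, read 185, 164 and 193 in F5H-OE against 53.3 and 54.1 in fah-1 and 56.8 to 62.8 in WT. The 3.36-fold difference (adjusted p = 9.29e-05) was the 1 of the 11 kept in all alternatives. Higher too were the polygalacturonase family gene AT1G70500 (3.24-fold, adjusted p = 0.0287), the pectin acetylesterase gene AT1G57590 (2.53-fold, adjusted p = 0.0110) and the polygalacturonase family gene AT3G42950 (1.63-fold, adjusted p = 0.0337). AT4G08160, of a xylanase family, was 1.94-fold higher (adjusted p = 0.0235), and AT5G53340, a galactosyltransferase of arabinogalactan proteins, 1.70-fold higher (adjusted p = 0.00897). The 2 lower genes were AT1G09910, of the rhamnogalacturonate lyase family (2.07-fold, adjusted p = 0.00357), and AT4G16745, of the exostosin family (1.60-fold, adjusted p = 0.00907).

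**Figure D2:**
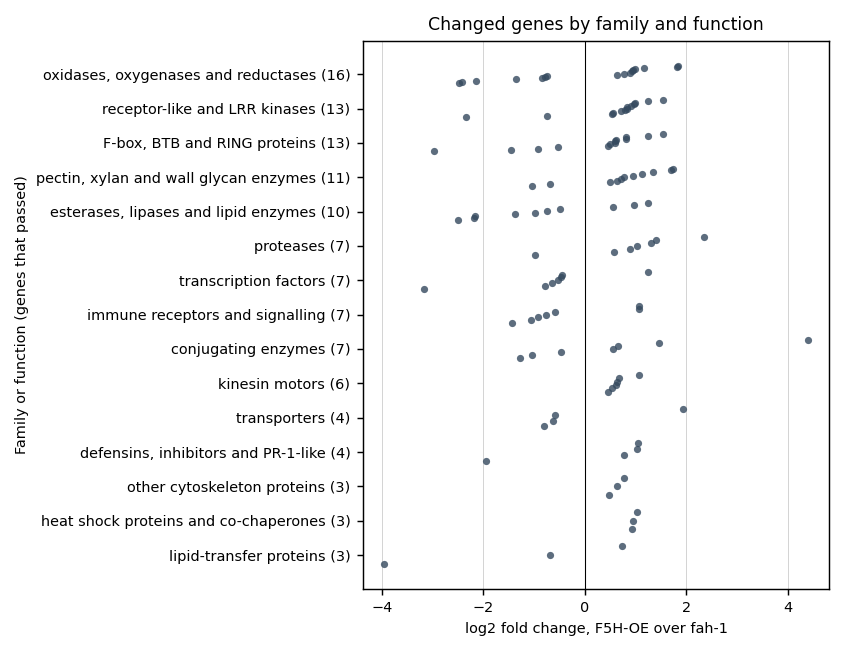
Log2 fold change of F5H-OE over fah-1 (horizontal axis) for the 114 changed genes placed in 15 groups by family and function, 1 point for each gene. All 6 kinesin genes lie to the right of 0, and 6 of 7 transcription factor genes lie to the left. 1 of these 6, AGL62, was at or below the TrpnX level in all F5H-OE and fah-1 arrays.

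The motor and cytoskeleton genes among the changed genes were all higher in F5H-OE. Unchanged genes of these families were not counted. The 6 kinesins that changed, motors that walk along microtubules, were higher by 0.46 to 1.07 on the log2 scale. AT4G38950 had the widest difference, with 53.6, 40.7 and 46.8 in F5H-OE against 24.6 and 20.1 in fah-1 (2.10-fold, adjusted p = 0.00768). AT5G66310 read 140, 137 and 126 against 89.2 and 85.6 (1.54-fold, adjusted p = 0.0110). The WT values of both, 26.6 to 28.7 and 95.2 to 103, lay between the lines and nearer to fah-1. The actin-binding NET1B (1.72-fold, adjusted p = 0.0278), the formin AT3G07540 (1.55-fold, adjusted p = 0.0146) and TRM20, a protein of microtubule arrays (1.39-fold, adjusted p = 0.0353), were higher as well. HTB1, a histone H2B, was 1.92-fold higher (415, 499 and 474 against 219 and 263, adjusted p = 0.0238). It was the 1 of 7 histone genes listed by symbol or synonym to pass, so the share of 14.3% (against 1.78% of all named genes) rests on 1 gene. None of these 10 genes kept its call in all alternatives.

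Receptor-like and leucine-rich repeat kinases, through which cells read peptides and wall signals, numbered 13, with 11 higher and 2 lower in F5H-OE. AT5G48740 read 138, 138 and 122 in F5H-OE against 42.1 and 48.2 in fah-1 (2.94-fold higher, adjusted p = 0.000635). AT1G67510 read 212, 200 and 203 against 115 and 116 (1.77-fold higher, adjusted p = 0.00129), and its WT values of 157 to 161 lay midway. AT5G39030, of the CrRLK1L kinases that are known for sensing the wall, went the other way, with 24.7, 18.5 and 22.8 against 108 and 112 (5.05-fold lower, adjusted p = 7.96e-05). These 3 kept their call throughout. AT1G09440 was 2.38-fold higher (adjusted p = 0.00305), a call lost in 1 alternative.

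Immune receptors of the TIR and NBS-LRR type and related signalling genes differed in both directions, 2 higher and 5 lower. AT5G45060 read 242, 179 and 153 against 92.2 and 86.3 (2.11-fold higher, adjusted p = 0.0195), and AT5G43740 19.1, 19.7 and 18.8 against 41.0 and 38.9 (2.08-fold lower, adjusted p = 0.00767). Genes of F-box, BTB and RING proteins, which select targets for ubiquitin, numbered 13, with 9 higher and 4 lower. Besides AT5G56380, the F-box gene AT5G65850 kept its call throughout (2.76-fold lower, adjusted p = 0.00146). AT5G60610, an F-box gene, was 2.91-fold higher (42.1, 82.0 and 46.7 against 21.5 and 16.2, adjusted p = 0.0260) and lost its call in 7 alternatives.

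Of 7 protease genes, 6 were higher in F5H-OE. Beside AT1G02300 these included the serine carboxypeptidase-like scpl48 (2088, 2918 and 3349 against 1163 and 1055, 2.47-fold, adjusted p = 0.0146), the aspartyl protease AT2G03200 (2.05-fold, adjusted p = 0.0135) and the subtilase ARA12 (1.50-fold, adjusted p = 0.0102). scpl42 was the 1 lower, at 91.3, 114 and 107 against 197 and 213 (1.97-fold, adjusted p = 0.0217). Of 29 listed serine carboxypeptidase-like genes, scpl48 and scpl42 were those that passed (6.90%, against 1.78% of all named genes).

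Of transcription factor genes 7 changed, with 6 lower in F5H-OE. Apart from HRD their differences were small, as for bZIP48 (1.71-fold lower, adjusted p = 0.0307), the MADS-box gene AGL80 (1.56-fold lower, adjusted p = 0.0165) and SHI (1.38-fold lower, adjusted p = 0.0378). AGL62, counted among the 6 lower, was at or below the TrpnX level in all F5H-OE and fah-1 arrays. No fold is given for it, and its direction is not read. The 1 higher was the zinc finger gene AT5G60470, at 50.1, 68.1 and 53.4 against 22.3 and 25.9 (2.36-fold, adjusted p = 0.00756).

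Smaller groups were those of defence and protein folding. The defensins PDF2.1 (63.4, 64.7 and 47.1 against 24.1 and 32.2, 2.08-fold, adjusted p = 0.0207) and LCR68 (2343, 2372 and 2356 against 1474 and 1286, 1.71-fold, adjusted p = 0.0358) were higher in F5H-OE. They were 2 of 19 genes listed by symbol or synonym as defensins, thionins or pathogenesis-related (10.5%, against 1.78% of all named genes). AT2G19970, a PR-1-like gene outside that list, was 3.84-fold lower (72.2, 109 and 141 against 342 and 460, adjusted p = 0.0132). The co-chaperone Hop3 read 67, 67.8 and 67.5 against 32.8 and 33.5 (2.03-fold higher, adjusted p = 0.00533). The small heat shock protein gene AT2G29500 (1.92-fold, adjusted p = 0.00340) and the DNAJ gene AT2G20560 (1.93-fold, adjusted p = 0.0129) were higher too. Of 4 transporter genes OCT5 was the 1 higher, and CHX16, a cation/proton exchanger (1.74-fold, adjusted p = 0.0205), AT1G05030 of the major facilitator family (1.53-fold, adjusted p = 0.0156) and AT1G61740 of the sulfite exporter family (1.50-fold, adjusted p = 0.0344) were lower. The lipid-transfer family genes other than AT3G53980 differed less, with AT2G44300 1.61-fold lower (adjusted p = 0.0413) and AT3G18280 1.66-fold higher (adjusted p = 0.0378).

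No group was assigned to the other 124 changed genes, of which 58 were above and 66 below fah-1, and 15 of these kept their call in all alternatives. AT5G49500 read 249, 310 and 231 in F5H-OE against 104 and 105 in fah-1 (2.49-fold higher, adjusted p = 0.00206). AT1G21520 read 204, 192 and 255 against 83.9 and 88.5 (2.50-fold higher, adjusted p = 0.00197). AT1G49310 read 83.9, 67.4 and 86.6 against 239 and 204 (2.80-fold lower, adjusted p = 0.00146). All 3 had WT values on the side of fah-1, well clear of F5H-OE.

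The lists of lignin, wall, flavonoid and tissue marker genes held 136 genes, of which 27 had a named probe set. One of the 27 passed, against 1.78% of all named genes. It was IRX10 (GUT2), a xylosyltransferase that builds the xylan backbone of secondary walls. It read 1534, 1372 and 1660 in F5H-OE against 1016 and 930 in fah-1, a 1.56-fold difference (log2 0.64 ± 0.12 SE, adjusted p = 0.0377). The call was lost in 9 of the 18 alternatives, and WT, at 1602, 1364 and 1307, lay with F5H-OE.

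The remaining secondary wall polysaccharide genes that could be named did not pass. IRX15-L and IRX15, known to be needed for normal xylan chains, had log2 differences of 0.53 ± 0.16 SE (adjusted p = 0.156) and 0.49 ± 0.15 SE (adjusted p = 0.179), and IRX10L (GUT1) 0.16 ± 0.09 SE (adjusted p = 0.449). IRX15-L read 1971, 2028 and 2352 in F5H-OE and 1532 and 1398 in fah-1, and IRX15 read 1270, 1120 and 1473 against 879 and 951. WT read 2271, 1773 and 1569 for IRX15-L and 1506, 1152 and 1156 for IRX15. For both and for IRX10L the WT mean lay nearer to F5H-OE than to fah-1. Neither IRX15-L nor IRX15 overlapped between the lines, as was so for 36.1% of all named genes. With array weights the adjusted p was 0.0263 for IRX15 and 0.0124 for IRX15-L, which also passed in the fit of F5H-OE replicates 2 and 3 with both fah-1 arrays. The median over the 4 genes was 0.51.

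Of the 22 monolignol pathway genes listed, 3 were measured by name and none passed. With 1.78% of all named genes called, lists of 3 to 8 measured genes, here and below, would mostly hold no call. HCT, which makes the shikimate esters on the way to lignin, read 4217, 4019 and 5021 in F5H-OE and 3815 and 4787 in fah-1 (log2 0.04 ± 0.15 SE, adjusted p = 0.928). CYP84A4, the close relative of F5H also called F5H2, read 210, 265 and 276 against 282 and 260 (log2 -0.13 ± 0.13 SE, adjusted p = 0.704). CCR2, a cinnamoyl-CoA reductase known from stress responses, read 410 in F5H-OE replicate 1 but 48.9 and 58.9 in the other F5H-OE arrays, with fah-1 at 43.6 and 43.0. Its log2 difference was 1.29 ± 0.77 SE (adjusted p = 0.465), and 0.31 without that array.

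Of genes for sinapate esters and phenylpropanoid glucosides, 7 were measured and none passed, with a median log2 difference of -0.12. ALDH2C4 (REF1), the dehydrogenase that forms sinapate and ferulate, read 1141, 1296 and 1417 in F5H-OE, 1404 and 1620 in fah-1 and 1812 to 1973 in WT (log2 -0.24 ± 0.11 SE, adjusted p = 0.360). UGT72E1, a glucosyltransferase of monolignol aldehydes, read 37.6, 39.2 and 28.8 against 53.3 and 65.5 (log2 -0.76 ± 0.29 SE, adjusted p = 0.258). F5H-OE lay below fah-1 on every array for UGT72E1 and overlapped with it for ALDH2C4. A lack of overlap was seen for 36.1% of all named genes. UGT72E1 passed with array weights and in the fit of F5H-OE replicates 2 and 3 with both fah-1 arrays, with a smallest adjusted p of 0.0296.

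None of the 4 peroxidases of the lignin polymerisation list passed. The peroxidase genes AT5G66390 (PRX72) and AT2G41480 (PRX25) had log2 differences of 0.22 ± 0.17 SE (adjusted p = 0.584) and -0.29 ± 0.32 SE (adjusted p = 0.721). AT5G64120, also called PRX71, read 1000 in F5H-OE replicate 1 and 224 and 264 in the others, with 248 and 342 in fah-1 (log2 0.42 ± 0.59 SE, adjusted p = 0.789). Of 8 flavonoid and anthocyanin genes none passed either, with BAN at -0.40 ± 0.16 SE (adjusted p = 0.277) and UGT78D1 at -0.53 ± 0.24 SE (adjusted p = 0.331). In the fit of F5H-OE replicates 2 and 3 with both fah-1 arrays, BAN, UGT78D1 and AT2G41480 passed, and BAN did with array weights too. The phloem marker SWEET11, a sucrose exporter, read 576 in F5H-OE replicate 1, 58.7 and 90.4 in replicates 2 and 3, and 528 and 619 in fah-1. Its log2 difference was -1.98 ± 0.87 SE (adjusted p = 0.321), with an adjusted p of 0.00681 once F5H-OE replicate 1 was left out. The part of tissue makeup in the differences was not tested, and in whole stems fewer cells of a type and less RNA per cell cannot be told apart. The 7 photosynthetic marker genes had a median log2 difference of 0.002 and none passed.

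**Figure D3:**
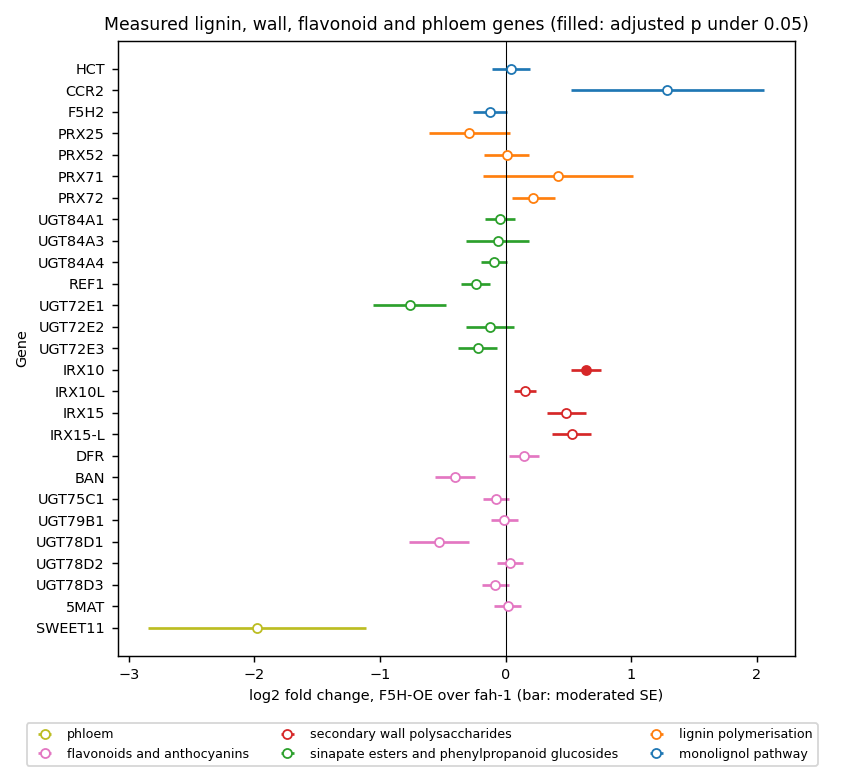
Log2 fold change of F5H-OE over fah-1 with its moderated SE (bar) for the 27 measured genes of the lignin, wall, flavonoid and phloem lists, coloured by list, with a filled point for an adjusted p under 0.05. IRX10, at 0.64, is the filled point, and CCR2 and SWEET11 have the widest bars, 0.77 and 0.87.

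The WT arrays showed on which side each difference lay. On a scale where 0 is the fah-1 mean and 1 the F5H-OE mean of log2 values, the WT mean was below 0.5 in 217 of the 238 genes and above it in 21. The median place was 0.17 for genes higher in F5H-OE and 0.03 for those lower. WT lay beyond fah-1 in 82 genes, in the part of the span next to fah-1 (0 to 0.333) in 114 and in the middle part in 37. These places are a description without a test, since the genes were chosen for their gap between the lines.

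In 5 genes WT lay at 0.667 or above, next to F5H-OE or beyond it. They included IRX10 at 0.85, the beta-glucosidase gene BGLU33 at 0.97 and the cytochrome b561 family gene AT5G47530 at 0.73. BGLU33 read 1276, 1315 and 1252 in F5H-OE and 1248, 1314 and 1245 in WT, against 834 and 978 in fah-1 (1.42-fold between the lines, adjusted p = 0.0321). QQS, an orphan gene linked to starch content, lay farthest beyond, with 1747, 1696 and 1873 in WT, 568, 780 and 529 in F5H-OE and 336 and 181 in fah-1. F5H-OE was 2.50-fold above fah-1 (adjusted p = 0.0414) while both lines lay below every WT array. The remaining gene, AT3G10320, had 31.1 to 31.6 in WT, 27.9 to 32.2 in F5H-OE and 22.3 and 21.6 in fah-1.

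**Figure D4:**
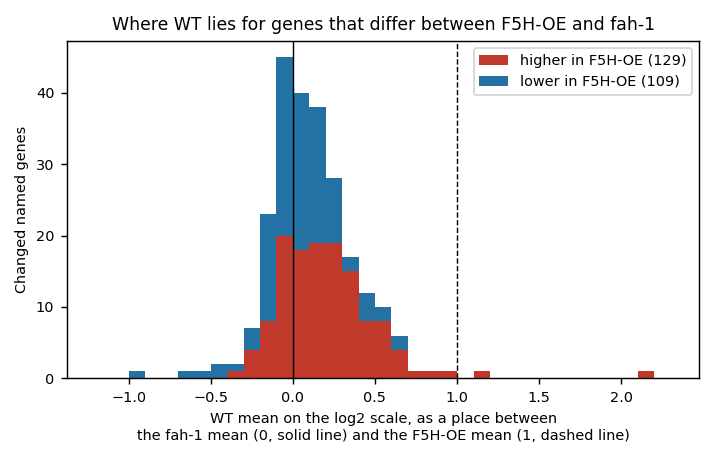
Number of changed named genes (vertical axis) by the place of the WT mean between the fah-1 mean (0, solid line) and the F5H-OE mean (1, dashed line) on the log2 scale, stacked for genes higher (129) and lower (109) in F5H-OE. Most genes stand close to the solid line, with a median of 0.096, and QQS is the bar at the far right, at 2.15.

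Changed genes were spread unevenly over the 5 chromosomes. On chromosome 5, 102 of 2981 named genes passed (3.42%), 50 higher and 52 lower in F5H-OE. The shares were 1.52% on chromosome 1 (52 of 3411), 2.12% on chromosome 2 (46 of 2169), 0.993% on chromosome 3 (27 of 2720) and 0.465% on chromosome 4 (9 of 1935). Chromosome 5 thus held 43.2% of the changed genes with a chromosome, and 29.6% of those called without F5H-OE replicate 1. Among the groups, 8 of the 13 F-box, BTB and RING genes, 6 of the 13 kinases, 6 of the 10 esterases and lipid enzymes and 5 of the 7 immune receptor genes were on chromosome 5, while none of the heat shock, defensin, lipid-transfer, transporter or non-kinesin cytoskeleton genes was. On chromosomes 1 to 4, 134 of 10235 genes (1.31%) changed, 78 higher and 56 lower. Whether a stretch of chromosome 5 inherited with either line has a part in these calls was not tested.

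**Figure D5:**
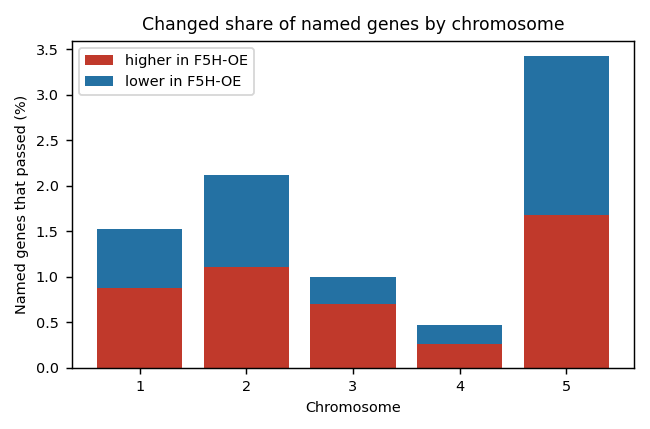
Share of the named genes of each chromosome (%) that passed, stacked for genes higher (red) and lower (blue) in F5H-OE than in fah-1. The bar of chromosome 5 is the tallest, at 3.42%, and that of chromosome 4 the lowest, at 0.465%.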

How the data were processed

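Total RNA of 8 stem samples was labelled with biotin and hybridised to 1-colour Affymetrix arrays, per the labels' protocols. The deposited values are intensity values on a linear scale. The submitters' processing notes name RMA, with no version. The sources used here name no chip definition. RMA gives values on a log2 scale and brings the arrays to like distributions, which hides a shift common to most transcripts. The design assumed log2 values, so the values were first put on a log2 scale without a pseudocount.

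Of 22810 probe sets, 64 controls were left out. Gene names came from the platform annotation where it lists 1 gene (13513 probe sets, with 503 listing several and 8730 unlisted), updated through a gene table of the TAIR10.1 assembly, in which 13436 matched. Each of 13355 genes was represented by its brightest such probe set. No coordinates or sequences were used.

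The labels gave each sample's group and replicate number. Although 3 replicates are named in the design text, 2 arrays of fah-1 were analysed here. Group means of all 8 arrays were fitted by lmFit and eBayes of limma 3.58.1, run in R 4.3.3. The 2-sided p-values were adjusted over 22746 probe sets by the Benjamini-Hochberg method, and 0.05 was the threshold. Every adjusted p is limma's, and SEs are its moderated SEs. The number of arrays limits the precision. The fit was tested on simulated data. Genes at or below the highest of 3 TrpnX control probe sets in all arrays of a group, or in 1 of 2, have a bound in place of a fold. The TrpnX level was set after seeing the data.

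The members and gene lists were chosen with earlier results of these data known, and the 15 family and function groups were assigned by hand to changed genes, from general knowledge of the loci. The text names the 15 genes with the largest difference in each direction among called genes whose arrays do not overlap. It also names up to 4 called genes of each list by smallest adjusted p, and up to 2 of each pathway list without a call. Examples from the family groups, HCT, AT5G64120, IRX15, IRX15-L, IRX10L, 253088_at and the genes placed by WT were chosen after their values were seen. Same-numbered F5H-OE and fah-1 arrays deviated together only weakly (correlations of 0.067 and 0.027). The deviations of 2 fah-1 arrays from their mean mirror each other, so these values cannot decide on pairing. The main fit took the arrays as unpaired. With the replicate number as a block, 229 probe sets passed in place of 449. Alternatives were recentring, a second quantile normalization, 2 dim filters, other fits and each array left out. A planned motif search in promoters was not run.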

Additional observations from a re-analysis of the deposited data

How the results depend on the processing

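The counts over all probe sets depended on the arrays used more than on scaling. Without 1 array at a time, from 69 (without fah-1 replicate 2) to 1554 (without F5H-OE replicate 1) probe sets passed, with 34 to 817 higher and 35 to 737 lower in F5H-OE, 2 to 35 genes of the family and pathway lists against 12 in the main analysis, and 29.58% to 53.85% of changed genes on chromosome 5. The lone fah-1 array was then assumed to vary like the other groups. With the F5H-OE and fah-1 arrays alone in the fit, 274 passed (148 higher, 126 lower). With array weights 2878 passed (1655 higher, 1223 lower), with 56 list genes and 28.64% on chromosome 5. A fit of F5H-OE replicates 2 and 3 against both fah-1 arrays, chosen after seeing the data, gave 2592 (1396 higher, 1196 lower), 55 list genes and 28.04%. These 2 settings and the fit without F5H-OE replicate 1 kept all 449 probe sets called. With the replicate number as a block, 229 passed (114 higher, 115 lower). Recentring gave 452, a second quantile normalization 432, the dim filters 452 and 443, a trended spread 450 and a robust spread 466. No changed gene reversed its direction in any of the 18 alternatives that tested it. At an unadjusted p under 0.05, 3575 probe sets passed. The cause of these changes in count was not tested.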

Other observations

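Among changed probe sets with no gene listed, 200 in all, 128 were higher and 72 lower in F5H-OE. Besides 253088_at, the probe set 256589_at was high in F5H-OE alone, at 322, 274 and 246 against 20.5 and 20.4 in fah-1 and 17.8 to 24.1 in WT (log2 difference 3.77 ± 0.15 SE, adjusted p = 1.69e-05). The lowest relative to fah-1 was 265837_at, at 31.3, 43.9 and 37.3 against 651 and 786, with WT from 170 to 461 (log2 difference -4.27 ± 0.35 SE, adjusted p = 0.000984). For 247358_at, F5H-OE read 48.8, 58.8 and 45.4, fah-1 573 and 558 and WT 557 to 631 (log2 difference -3.48 ± 0.12 SE, adjusted p = 7.62e-06).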
